A study of Mus musculus with 2 samples.

Results

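The VEGF ligands and receptors are described here as 8 of the 33696 genes counted in mouse lung cells: the ligand genes Vegfa, Vegfb and Vegfc, the receptor genes Kdr, Flt1 and Flt4, and the co-receptor genes Nrp1 and Nrp2. They were taken by name as a signalling family and not by their measured values, and all 8 were found once in the gene list. The study compared lungs of adult mice labelled GFI1 KO, which lack the transcriptional repressor GFI1, with lungs of mice labelled GFI1 WT. Dissociated live lung cells were sorted and their polyadenylated RNA was counted by 3′ single-cell sequencing. One library per label, each labelled as mouse 1, was analysed as 1 sample. Both labels stand on a C57BL6/J background and no other treatment is named for these libraries. With 1 library per label no test was possible, so each value carries a 95% interval that covers counting error only, and genotype, mouse and library preparation cannot be told apart.

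VEGF ligands are secreted growth factors that bind tyrosine kinase receptors, mainly on endothelial cells, and control the growth, survival and permeability of blood and lymphatic vessels. Kdr encodes VEGFR2, the main signalling receptor of blood vessels. Flt1 encodes VEGFR1, which binds Vegfa and Vegfb tightly, is also made as a soluble decoy and is carried by monocytes and macrophages. Flt4 encodes VEGFR3, the receptor for Vegfc, and Nrp1 and Nrp2 are co-receptors shared with the class 3 semaphorins. In the lung, aerocytes, the large capillary cells of gas exchange, are known to depend on Vegfa, much of which alveolar type 1 epithelial cells supply.

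The library labelled GFI1 KO held 10495 cells after filtering, with a median of 11076 unique molecular identifiers (UMIs, each counting 1 captured RNA molecule) per cell, and the library labelled GFI1 WT held 19342 cells with a median of 6217. Only 74 cell barcodes were shared between them. The level of Gfi1 could not check the labels, because the files hold no counts per exon: Gfi1 stood in lymphoid cells at 23.6 CPM, UMIs scaled to a total of 1000000 per class, under the KO label and at 12.8 CPM in those labelled GFI1 WT. The cell mix differed widely. Endothelial cells numbered 109 (1.04% of cells) under the KO label and 2226 (11.5%) under the WT label, epithelial cells 153 and 147, stromal cells 22 and 359, myeloid cells 7682 and 7080, and lymphoid cells 1940 and 7715. Another 589 and 1815 cells stayed unnamed, and 52.5% and 51.9% of these were called doublets. Endothelial cells carried UMIs of 8 of 8 endothelial markers in both libraries, with summed levels of 16580 CPM in KO-label cells and 16420 CPM in WT-label cells, while Epcam, a defining epithelial marker, was at 0 in those of the KO label. No cluster passed for alveolar type 1 or type 2 epithelial cells, or for arterial, venous or lymphatic endothelial cells. None passed for pericytes, alveolar fibroblasts or mesothelial cells, so these classes are not described as such. An unnamed cluster of 9 KO-label and 236 WT-label cells was led by genes such as the pericyte markers Trpc6 and Postn. It carried markers of several lineages, and the stromal values do not include it.

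The starts of 4 of these genes are shown because they set Vegfa, known mainly for blood vessels, and Vegfc, known mainly for lymphatic vessels, beside the blood vessel receptors. Each is the 250 bases before the gene's start, 5′ to 3′ on the gene's strand, from RefSeq on GRCm38.p6, whereas the submitters' processing notes name GRCm39 for the counts. Vegfa lies at chr17:46032378-46032627 on the minus strand, Vegfc at chr8:54077282-54077531 on the plus strand, Kdr at chr5:75978456-75978705 on the minus strand and Flt1 at chr5:147726012-147726261 on the minus strand. Capitals mark the GC box, GGGCGG on either strand.
Vegfa: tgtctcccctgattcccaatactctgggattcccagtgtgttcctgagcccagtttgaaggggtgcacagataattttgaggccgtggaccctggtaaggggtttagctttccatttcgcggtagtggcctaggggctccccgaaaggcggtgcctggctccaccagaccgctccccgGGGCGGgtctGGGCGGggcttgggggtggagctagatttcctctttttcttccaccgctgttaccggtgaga
Vegfc: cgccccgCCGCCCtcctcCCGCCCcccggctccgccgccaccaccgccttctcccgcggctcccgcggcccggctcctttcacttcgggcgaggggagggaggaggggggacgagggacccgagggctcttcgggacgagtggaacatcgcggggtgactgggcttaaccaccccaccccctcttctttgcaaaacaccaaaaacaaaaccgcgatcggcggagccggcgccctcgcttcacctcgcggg
Kdr: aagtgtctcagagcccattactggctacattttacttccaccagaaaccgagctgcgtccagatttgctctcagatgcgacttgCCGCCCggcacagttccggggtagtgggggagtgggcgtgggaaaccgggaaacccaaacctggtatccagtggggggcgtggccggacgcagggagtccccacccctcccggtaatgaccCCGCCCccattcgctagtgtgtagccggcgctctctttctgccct
Flt1: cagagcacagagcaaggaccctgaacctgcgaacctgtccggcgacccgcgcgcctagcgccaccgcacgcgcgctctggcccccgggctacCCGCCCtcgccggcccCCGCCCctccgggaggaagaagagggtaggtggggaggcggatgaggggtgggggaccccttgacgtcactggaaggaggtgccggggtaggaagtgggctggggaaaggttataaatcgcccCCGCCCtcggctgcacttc
A GC box was present in 8 of 8 members against 32.7% of 32851 promoter windows of the same length, where the bases were 59.2% to 76.4% G or C in the members against a median of 52.4%. The ETS core GGAA stood in 8 of 8 against 93.5% of windows, and the hypoxia response core ACGTG in 0 of 8 against 16.6%. The GFI1 core AATC stood in 6 of 8 against 69.0%, and with its flanks as AAATCAC in 0 of 8 against 2.75%. Both strands were searched. Only Flt1 held the TATA box TATAAA, found in 12.4% of windows. These are descriptions of letters in the windows and show no binding.

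The plot of each gene by cell type gives the levels that follow, in CPM of the UMIs summed per library and class. Because 3′ counts were not scaled by transcript length, levels are compared between cell types for 1 gene and not between genes.

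**Figure D1:**
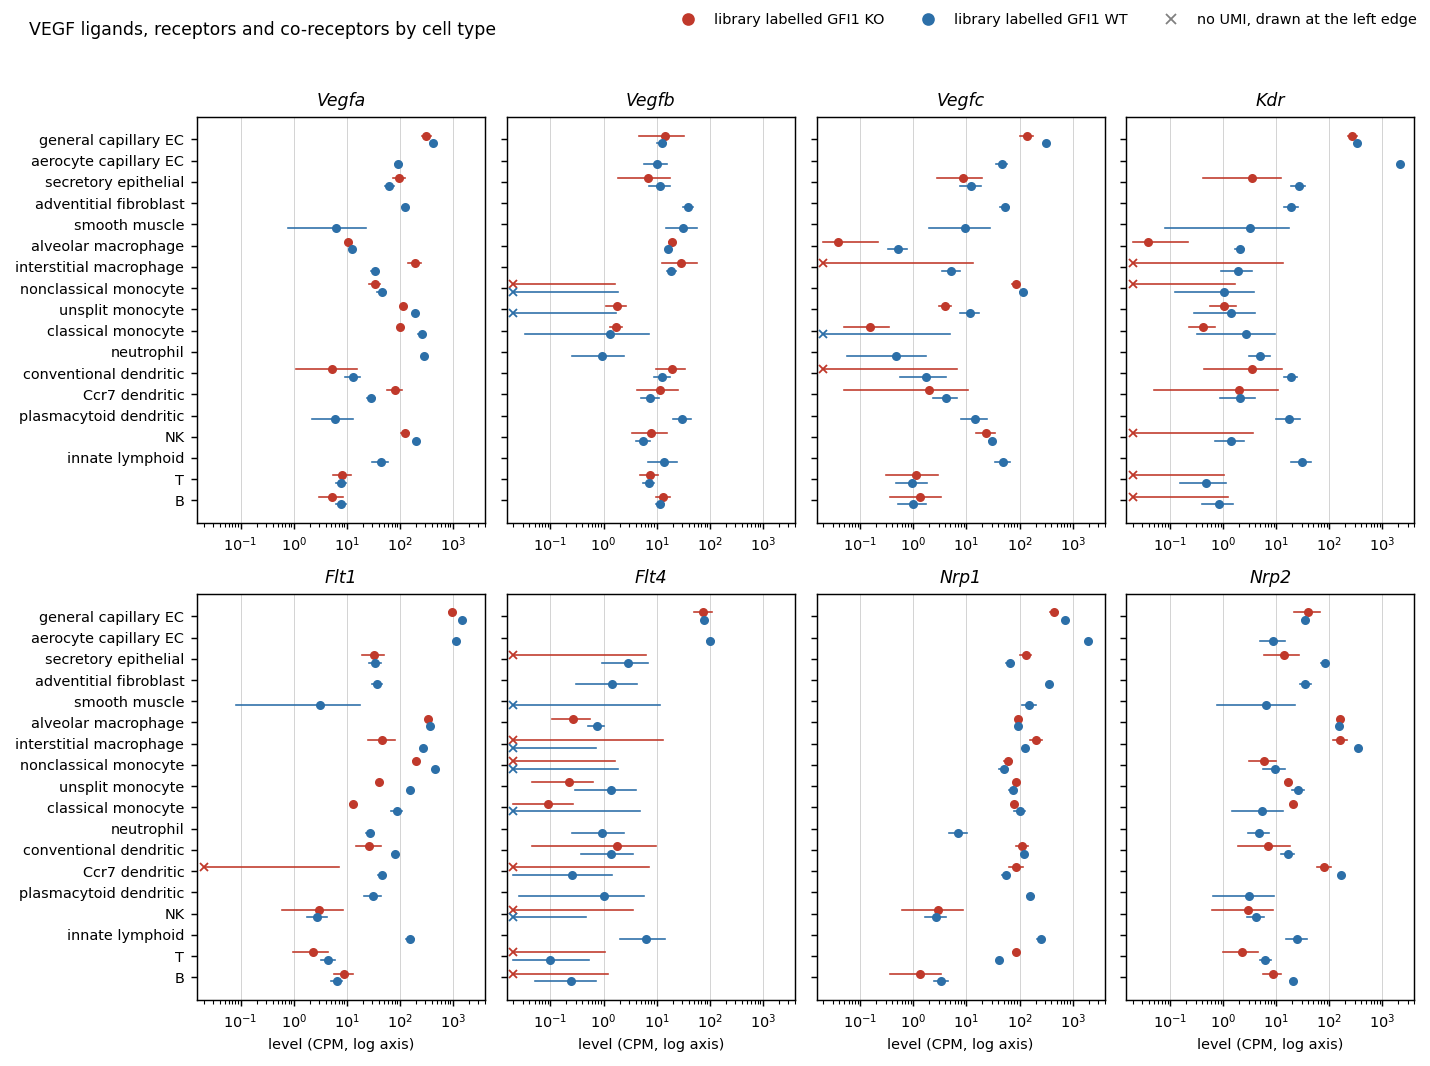
Levels of the 8 genes (x axis, CPM, log scale) in each cell type with at least 20 cells in a library (y axis), with exact Poisson 95% intervals that cover counting error only, for the library labelled GFI1 KO (red) and the library labelled GFI1 WT (blue). Kdr and Flt4 stand apart in the endothelial rows, whereas Flt1 and both neuropilin genes spread into macrophages and monocytes. EC, endothelial cell.

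Vegfa, the ligand of both VEGFR1 and VEGFR2, was highest in general capillary endothelial cells, at 316 CPM (112 UMIs, 101 cells) in KO-label cells and 429 CPM (4171 UMIs, 2014 cells) in WT-label cells. That class is 1 cluster, which raised 8 general capillary and 5 arterial endothelial markers. It pools the arterial-like and venous-like sub-clusters described below. Under the WT label the next were neutrophils at 286 CPM, classical monocytes at 259 CPM, NK cells at 198 CPM, unsplit monocytes at 195 CPM and fibroblasts at 126 CPM. The intervals of neutrophils and classical monocytes overlapped, as did those of NK cells and unsplit monocytes. The class called unsplit monocytes is 1 cluster with markers of classical and nonclassical monocytes. Most cells called classical monocytes lay in a cluster led by Vcan and F13a1 and by granule genes such as Prtn3 and Lcn2. Alveolar macrophages stood far lower, at 10.7 CPM in KO-label cells and 12.5 CPM in WT-label cells, close to T cells at 8.24 and 7.78 CPM and B cells at 5.25 and 7.82 CPM. Aerocytes, at 93.6 CPM under the WT label, had less Vegfa than general capillary cells.

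Epithelial Vegfa was 94.8 CPM (59 UMIs) in KO-label cells and 64.0 CPM (119 UMIs) in WT-label cells. With sub-clusters that held more UMIs of the leukocyte gene Ptprc than of Epcam left out, which kept 33 of the 153 KO-label cells, the direction turned, to 43.4 CPM (15 UMIs, 33 cells) and 57.7 CPM (101 UMIs, 117 cells), a ratio of 0.752 (0.406 to 1.30). Of those kept, sub-cluster 1 was led by genes such as Sftpc, known from alveolar type 2 cells, and sub-cluster 6 by genes such as Rsph1, known from ciliated cells. Unnamed sub-cluster 2, with 14 KO-label and 31 WT-label cells, was led by genes such as Lgals2 and Olfm4, and unnamed sub-cluster 5 by Chil4 and Enpp6. The sub-clusters left out were led by genes such as F13a1, Msr1 and Clec12a, known from myeloid cells. Stromal Vegfa was 226 CPM on 27 UMIs of 22 cells under the KO label and 111 CPM on 266 UMIs of 359 cells under the WT label.

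Vegfb, which binds VEGFR1 but not VEGFR2, lay between 6.43 and 41.9 CPM in the 5 named lineages of both libraries. Under the WT label it was 38.8 CPM in fibroblasts, 31.7 CPM in smooth muscle, 30.5 CPM in plasmacytoid dendritic cells, 16.3 CPM in alveolar macrophages and 12.4 CPM in general capillary cells. In nonclassical monocytes no Vegfb UMI was seen in either library, in 387 and 357 cells, which allows up to 1.33 and 1.55 CPM on a floor of 3 counts. Classical monocytes held 1.75 CPM (58 UMIs) under the KO label and 1 UMI under the WT label.

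Vegfc, the ligand of VEGFR3, was highest in 2 classes. General capillary cells held 138 CPM (49 UMIs) in KO-label cells and 311 CPM (3022 UMIs) in WT-label cells. Nonclassical monocytes, which patrol the capillary wall, held 84.1 CPM (189 UMIs) in KO-label cells and 117 CPM (228 UMIs) in WT-label cells. Classical monocytes held 5 Vegfc UMIs in 3251 cells of the KO label and none in 103 cells of the WT label. Lower levels were seen under the WT label in fibroblasts (53.1 CPM), innate lymphoid cells (48.7 CPM), aerocytes (45.9 CPM) and NK cells (30.7 CPM).

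Kdr was the most endothelial of the receptors. Aerocytes held 2099 CPM (3566 UMIs, 212 cells) under the WT label and 2159 CPM (103 UMIs) in the 8 aerocytes of the KO label. General capillary cells held 329 CPM (3204 UMIs) under the WT label and 271 CPM (96 UMIs) under the KO label. The aerocytes and general capillary cells did not overlap in their intervals in either library. The next were innate lymphoid cells, with 24 UMIs in 152 cells (19.2 to 44.6 CPM), secretory epithelial cells 26.3 CPM and fibroblasts 19.1 CPM under the WT label. Endothelial RNA was also counted in these classes. Cdh5, a pan-endothelial gene, stood at 145 CPM in the innate lymphoid cells, 25.2 CPM in the secretory cells and 46.4 CPM in the fibroblasts. At the ratio found in WT-label endothelial cells it went with 47.3, 8.21 and 15.2 CPM of Kdr. The Kdr level of the secretory cells, on 45 UMIs, stood above that of fibroblasts and their Cdh5 level below it, a difference that was not tested. After each cell was thinned to 1500 UMIs, a Kdr UMI was seen in 94.8% of 210 aerocytes (100% before thinning) and 34.7% of 1933 general capillary cells (67.4% before thinning) of the WT label, against 0.0422% of T cells and 0.0651% of B cells. Median depths were 7786 UMIs in aerocytes, 4850 in general capillary cells, 5893 in T cells and 4270 in B cells.

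Flt1 was high in all capillary cells and spread into the myeloid lineage. Under the WT label it was 1502 CPM (14610 UMIs) in general capillary cells, 1132 CPM (1924 UMIs) in aerocytes, 466 CPM (905 UMIs) in nonclassical monocytes, 363 CPM (16241 UMIs) in alveolar macrophages, 271 CPM (1407 UMIs) in interstitial macrophages and 157 CPM (343 UMIs) in unsplit monocytes. Under the KO label general capillary cells held 960 CPM (340 UMIs), alveolar macrophages 340 CPM (8884 UMIs), nonclassical monocytes 198 CPM (445 UMIs) and classical monocytes 12.9 CPM (428 UMIs). Thus alveolar macrophages ranked above nonclassical monocytes under the KO label and below them under the WT label. A Flt1 UMI was seen after thinning in 85.0% of general capillary cells and 40.6% of 3693 alveolar macrophages of the WT label, against 0.633% of T cells and 0.553% of B cells. The 3′ counts do not separate the membrane and soluble forms.

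Flt4 was all but limited to endothelium. It was 79.6 CPM (774 UMIs) in general capillary cells and 103 CPM (175 UMIs) in aerocytes of the WT label, and 76.2 CPM (27 UMIs) in general capillary cells of the KO label. The intervals of these capillary types under the WT label, 74.1 to 85.4 CPM and 88.3 to 119 CPM, did not overlap. Every other named class of at least 20 cells lay below 7 CPM.

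Nrp1, co-receptor of VEGFR2, was highest in aerocytes, at 1992 CPM (3385 UMIs) under the WT label. It was 711 CPM in general capillary cells, 362 CPM in fibroblasts, 249 CPM in innate lymphoid cells and 160 CPM in plasmacytoid dendritic cells. Of these levels, 71.9 CPM in the innate lymphoid cells and 76.2 CPM in the plasmacytoid dendritic cells went with their Cdh5. General capillary cells of the KO label held 449 CPM (159 UMIs). Alveolar macrophages held 95.3 and 93.0 CPM and classical monocytes 79.7 and 101 CPM under the KO and WT labels. Nrp2, co-receptor of VEGFR3, had another distribution, with 345 CPM (1790 UMIs) in interstitial macrophages, 168 CPM (660 UMIs) in Ccr7 dendritic cells and 149 CPM (6654 UMIs) in alveolar macrophages of the WT label, against 34.2 CPM in general capillary cells and 8.83 CPM in aerocytes.

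The same counts, read as sources, showed which cells supplied each transcript in each library. This depends on cell numbers as well as on levels, so the difference in endothelial cell number enters every value. Endothelial cells held 1.89% of Vegfa UMIs under the KO label and 38.9% under the WT label, and myeloid cells 88.0% and 25.3%. Classical monocytes alone held 54.4% of Vegfa UMIs under the KO label. Under the WT label general capillary cells held 37.4%, NK cells 14.0% and neutrophils 10.9%. For Vegfc, nonclassical monocytes held 47.1% under the KO label and 4.77% under the WT label, and endothelial cells 12.2% and 64.9%.

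The receptors differed in this respect. Endothelial cells kept most Kdr UMIs in both libraries, 76.2% under the KO label and 83.6% under the WT label, and most Flt4 UMIs, 33 of 55 and 949 of 1203. Flt1 UMIs came from endothelial cells for 2.99% under the KO label and 37.9% under the WT label, with alveolar macrophages at 71.9% and 37.2%. Nrp1 UMIs came from endothelial cells for 2.89% and 49.4%, and Nrp2 UMIs from alveolar macrophages for 69.8% and 55.1%. The highest stromal share of the 8 was that of Vegfb under the WT label, 91 of 1820 UMIs.

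**Figure D2:**
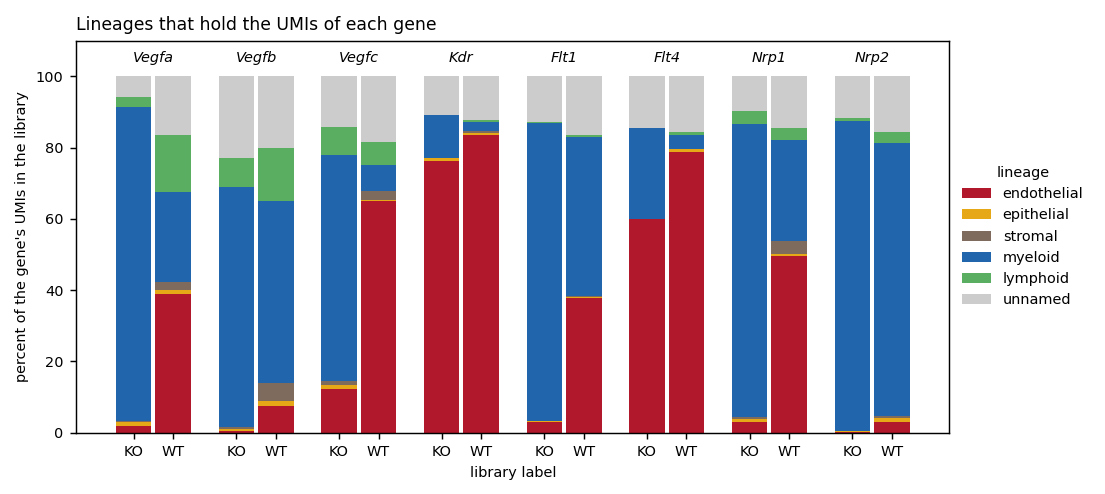
Percent of all UMIs of each gene held by each lineage (y axis), in the library labelled GFI1 KO and the library labelled GFI1 WT (x axis). Myeloid cells hold 88.0% of Vegfa and 83.7% of Flt1 under the KO label against 25.3% and 44.8% under the WT label, whereas endothelial cells hold 76.2% and 83.6% of Kdr.

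All endothelial cells were re-clustered without the 8 genes, and the ligands and receptors differed between the sub-clusters. Sub-clusters 2 and 3 were named arterial and sub-cluster 6 venous, so the general capillary class of the whole clustering held more than capillary cells. Under the WT label, among sub-clusters of at least 20 cells, Vegfc ranged from 21.4 CPM (32 UMIs, 341 cells) in arterial-like sub-cluster 3, which is led by Mecom, Edn1 and Dll4, to 833 CPM (408 UMIs, 84 cells) in venous-like sub-cluster 6, which is led by Slc6a2 and Car8. Sub-cluster 1, unnamed, held 558 CPM (1198 UMIs, 457 cells) with Vegfc itself as its leading gene. Between sub-clusters 3 and 6 Vegfa ran the other way, with 692 CPM (1035 UMIs) in sub-cluster 3 and 145 CPM (71 UMIs) in sub-cluster 6. Not every sub-cluster followed this: aerocyte-like sub-cluster 5 was low in both, with 157 Vegfa and 115 Vegfc UMIs in 198 WT-label cells. The intervals of sub-clusters 3 and 6 did not overlap for either ligand. In thinned WT general capillary cells, a Vegfc UMI was seen in 16.9% of cells with a Vegfa UMI and in 23.3% of cells without one.

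Among sub-clusters of at least 20 WT-label cells, Flt4 and Nrp2 were highest in sub-cluster 6, at 194 and 367 CPM under the WT label, and this sub-cluster held lymphatic markers beside venous ones. Cells with UMIs of at least 2 of Prox1, Mmrn1 and Ccl21a, defining lymphatic genes, were therefore counted apart, a division chosen after the values were seen. The 9 such cells of sub-cluster 6 under the WT label held Flt4 at 895 CPM (75 UMIs), Nrp2 at 1384 CPM (116 UMIs), Kdr at 704 CPM (59 UMIs) and no Vegfc UMI, which allows at most 35.8 CPM on the floor of 3 counts. They had no UMI of the venous genes Vwf and Slc6a2. The other 75 cells held Vegfc at 1004 CPM (408 UMIs), Flt4 at 49.2 CPM (20 UMIs) and Nrp2 at 158 CPM (64 UMIs), with Vwf at 3643 CPM. Most Flt4 UMIs and all Vegfc UMIs of this sub-cluster thus lay in different cells. The single KO-label cell with these lymphatic markers in that sub-cluster carried 3 Flt4, 3 Nrp2 and 3 Kdr UMIs.

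**Figure D3:**
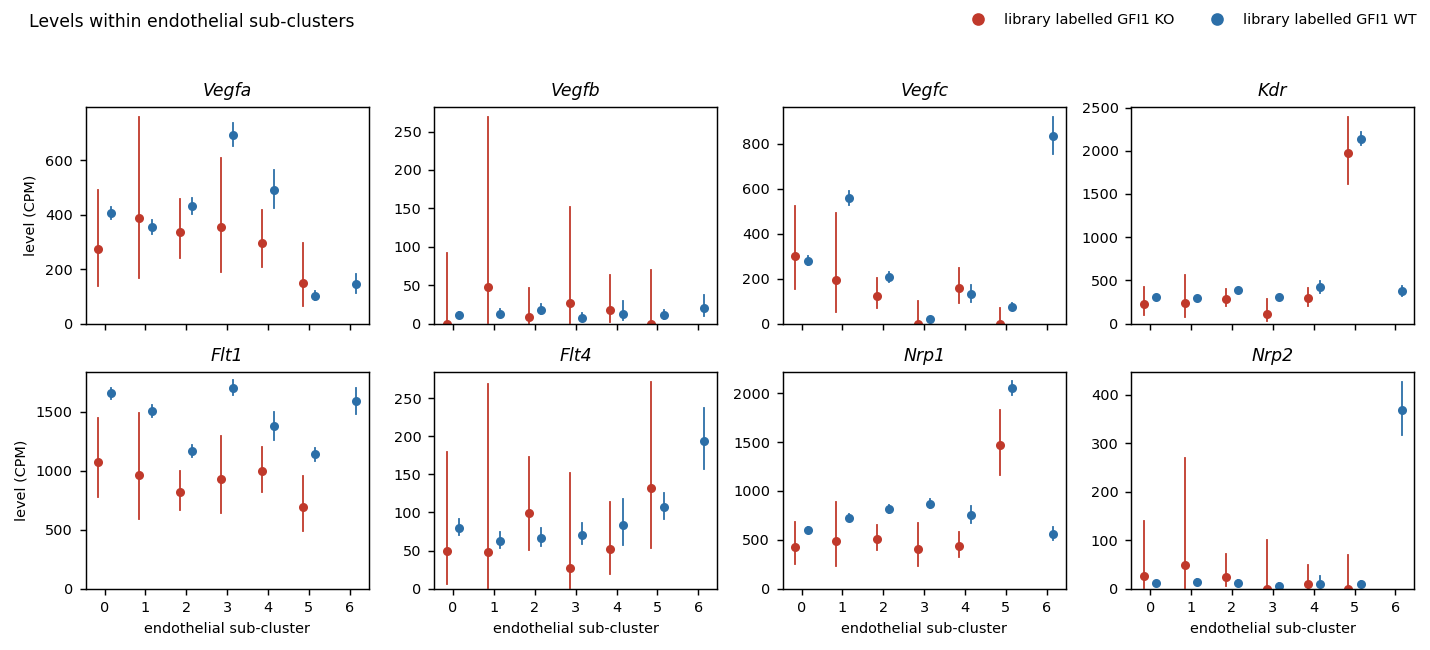
Levels (y axis, CPM, linear) of the 8 genes in endothelial sub-clusters 0 to 6 (x axis) with exact Poisson 95% intervals for counting error, under the KO label (red, drawn where a sub-cluster held at least 6 cells) and the WT label (blue). Sub-clusters 2 and 3 are arterial-like, 5 aerocyte-like and 6 venous-like with lymphatic-marker cells, the others unnamed. Kdr and Nrp1 peak in sub-cluster 5, Vegfc, Flt4 and Nrp2 in sub-cluster 6, and red Flt1 points lie below the blue ones.

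Detection in single cells gave how often these transcripts were seen together. In thinned WT aerocytes 72.9% of cells held UMIs of both Kdr and Flt1 and 88.1% of both Kdr and Nrp1. In general capillary cells these shares were 28.8% and 23.0%, and 37.5% held both Vegfa and Flt1, a ligand with its receptor. In alveolar macrophages 7.12% held both Flt1 and Nrp2, and 0.0542% both Kdr and Flt1. These shares follow the separate ones: a Flt1 UMI was seen in 76.9% of aerocytes with a Kdr UMI and 72.7% of those without, in 83.0% and 86.0% of general capillary cells, and a Nrp2 UMI in 17.5% of alveolar macrophages with a Flt1 UMI and 16.2% of those without.

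The libraries were compared by the ratio of levels, KO label over WT label, among genes with at least 30 UMIs over both libraries in a class. A gene was called when the bound of its interval nearer to 1 lay past 1.5-fold. In endothelial cells 1 of 8 genes was called, beside 1.36% of all genes tested. This was Vegfc, at 122 CPM (49 UMIs) in KO-label cells and 271 CPM (3100 UMIs) in WT-label cells, a ratio of 0.449 (0.332 to 0.596). Flt1 stood at 918 and 1447 CPM, with a ratio of 0.634 (0.571 to 0.703), and Nrp1 at 582 and 901 CPM, with a ratio of 0.646 (0.565 to 0.735). Vegfa stood at 289 and 379 CPM, with a ratio of 0.762 (0.628 to 0.916), and Kdr at 495 and 593 CPM, with a ratio of 0.836 (0.722 to 0.962). The intervals of these 4 excluded 1. Those of Flt1, Nrp1 and Vegfa reached both sides of a 1.5-fold difference and that of Kdr lay within it, and Vegfb, Flt4 and Nrp2 had intervals that included 1. In general capillary cells Vegfc was again the 1 gene called of 8, beside 1.43% of all genes, with a ratio of 0.445 (0.329 to 0.590).

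The mix of endothelial sub-clusters differed between the libraries. Of the KO-label cells 42 lay in sub-cluster 4 and 28 in sub-cluster 2, and only 6 in Vegfc-led sub-cluster 1 and 2 in sub-cluster 6. Within sub-clusters Vegfc was at 299 CPM (12 UMIs) in KO-label cells and 279 CPM (807 UMIs) in WT-label cells in sub-cluster 0, and at 157 CPM (18 UMIs) and 130 CPM (51 UMIs) in sub-cluster 4. It was at 193 CPM (4 UMIs) and 558 CPM in sub-cluster 1, and at 123 CPM (15 UMIs) and 206 CPM (381 UMIs) in sub-cluster 2. No Vegfc UMI was seen in the 11, 9 and 2 KO-label cells of sub-clusters 3, 5 and 6. The WT-label cells there held 32, 115 and 408 UMIs, which left upper bounds of the ratio at 4.98, 0.938 and 0.506. The 1 KO-label cell in each of sub-clusters 7 and 8 had none either. Against the UMIs expected from WT-label levels in the same sub-clusters, general capillary cells of the KO label held 0.675 (0.506 to 0.901) of the Vegfc UMIs, and the call was lost. Flt1 gave 0.690 (0.617 to 0.771) and Nrp1 0.590 (0.501 to 0.694) on this scale. Vegfa gave 0.670 (0.550 to 0.815) and Kdr 0.724 (0.586 to 0.895). Nrp2 went the other way, at 1.94 (1.11 to 3.39) on 14 UMIs. The Flt1 ratio lay below 1 in each of sub-clusters 0 to 6, between 0.429 and 0.723, whereas the 1 KO-label cell in each of sub-clusters 7 and 8 gave ratios of 1.95 and 2.01 on 6 and 9 UMIs. Endothelial cells of the KO label were shallower, with a median of 3706 UMIs against 5004. Thinned to equal depth, Flt1 kept a ratio of 0.652 (0.547 to 0.772) and Vegfc one of 0.435 (0.252 to 0.700), which was then not called.

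**Figure D4:**
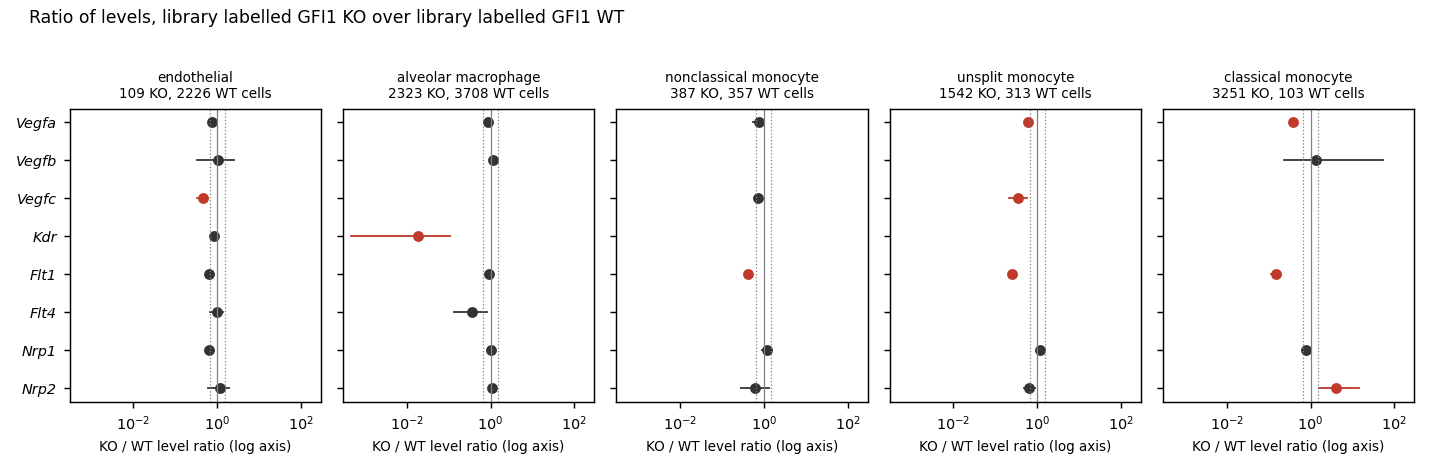
Ratio of levels, library labelled GFI1 KO over library labelled GFI1 WT (x axis, log scale), for each of the 8 genes with enough UMIs (y axis) in 5 cell classes, with exact 95% intervals for counting error only. Red marks ratios called past 1.5-fold (dotted lines), and Flt1 lies below 1 in all 5 classes, from 0.149 in classical monocytes to 0.936 in alveolar macrophages.

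In alveolar macrophages, the class with the most UMIs, 1 of 7 genes tested was called, beside 3.04% of all genes. Flt1 had a ratio of 0.936 (0.912 to 0.961), Nrp1 1.02 (0.974 to 1.08), Nrp2 1.06 (1.02 to 1.10) and Vegfb 1.17 (1.04 to 1.32), and Vegfa had 0.857 (0.740 to 0.992), all within 1.5-fold. Flt4 had 0.363 (0.136 to 0.835) on 7 and 33 UMIs and was not called. The gene called was Kdr, with 1 UMI in 2323 cells of the KO label and 91 UMIs in 3708 cells of the WT label. The pan-endothelial gene Cdh5 moved with it in these cells, at 0.268 and 5.10 CPM. In WT-label endothelial cells Kdr stood to Cdh5 as 0.326 to 1, so 1.67 CPM of Kdr went with the Cdh5 found in the macrophages, where 2.04 CPM was measured. The same reckoning gave 4.07 CPM for Flt1 in those macrophages, where 363 CPM was measured. The part of endothelial RNA in these values was not tested.

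In monocytes Flt1 was called lower in each of 3 classes. In classical monocytes, with 3251 cells under the KO label and 103 under the WT label, 3 of 5 genes were called, 1 higher and 2 lower, beside 4.96% of all genes. The class joins clusters 1 and 31. Cluster 1, with 3204 and 76 cells, was led by the monocyte markers Vcan and F13a1 and by granule genes such as Prtn3 and Lcn2. It raised 8 classical monocyte markers and 4 neutrophil markers. Cluster 31 was led by interferon-response genes such as Ifit3 and Rsad2 and held 27 of the WT-label cells and 47 of the KO-label cells. Vegfa stood at 101 and 259 CPM, with a ratio of 0.389 (0.337 to 0.452), and Flt1 at 12.9 and 86.9 CPM, with a ratio of 0.149 (0.114 to 0.196). Within cluster 1 Vegfa was at 100.1 and 283 CPM and Flt1 at 12.2 and 46.6 CPM, and within cluster 31 they were at 162 and 202 CPM and at 64.3 and 184 CPM. Nrp2, at 20.9 CPM (694 UMIs) against 5.27 CPM (4 UMIs), had a ratio of 3.98 (1.55 to 14.6). That is a log2 ratio of 1.99, which turned to -1.82 when only cells with at least 1000 UMIs were kept and lay below 0 under 3 further settings. In unsplit monocytes 3 of 5 genes were called, all lower, beside 3.75% of all genes: Vegfa at 116 and 195 CPM, Vegfc at 3.96 and 11.5 CPM and Flt1 at 40.2 and 157 CPM. In nonclassical monocytes, with 387 and 357 cells of similar depth, 1 of 5 was called, beside 2.04% of all genes. It was Flt1, with a ratio of 0.424 (0.378 to 0.476), while Vegfc had 0.716 (0.587 to 0.872) and Vegfa 0.746 (0.541 to 1.03). The same direction was called in 3 other myeloid types with fewer KO-label cells, so that Flt1 was called lower in 6 of the 7 myeloid types compared, alveolar macrophages being the exception. In interstitial macrophages Flt1 stood at 13 UMIs in 27 cells (46.6 CPM) against 1407 UMIs in 447 cells (271 CPM), with 3 of 5 genes called beside 7.17% of all genes. In Ccr7 dendritic cells it stood at 0 UMIs in 56 cells, which allows up to 5.83 CPM on the floor of 3 counts, against 181 UMIs in 355 cells (46.1 CPM), with 3 of 5 genes called beside 5.12%. That class raised 8 Ccr7 dendritic and 5 conventional dendritic markers. Its leading genes held Cd209a and Mgl2, which are conventional dendritic markers, beside Ccl22. In conventional dendritic cells Flt1 stood at 26.5 CPM (15 UMIs) against 81.8 CPM (235 UMIs). It was the 1 gene called of 6, beside 3.42%. Their Cdh5, at 3.53 and 49.4 CPM, went with 2.82 and 39.4 CPM of Flt1. Doublets were called for 0% of these cells under the KO label and 9.95% under the WT label. The part of endothelial RNA in this call was not tested. The Cdh5 level in WT-label nonclassical monocytes, 6.18 CPM, went with 4.93 CPM of Flt1 of the 466 CPM measured.

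Over myeloid cells as a whole, 6 of 8 genes were called, 1 higher and 5 lower, beside 26.9% of all genes. The lower ones were Vegfb, Kdr, Flt1, Flt4 and Nrp2. The numbers of cells of each myeloid type differed between the libraries, with classical monocytes at 3251 and 103 cells and neutrophils at 8 and 1429. Vegfa was the higher one, at 70.5 and 42.2 CPM, with a ratio of 1.67 (1.60 to 1.75). The direction turned when cells were thinned to equal depth and so weighted alike, with 71.6 and 76.2 CPM and a ratio of 0.939 (0.851 to 1.04). Against the WT-label levels of the same 10 myeloid types, the KO-label cells held 0.460 (0.413 to 0.513) of the expected Vegfa UMIs, 0.658 (0.625 to 0.692) of Flt1, 0.941 (0.842 to 1.05) of Nrp1 and 1.11 (1.05 to 1.17) of Nrp2. Without classical monocytes, whose expected level rests on 103 WT-label cells, these were 0.654 (0.597 to 0.717), 0.772 (0.750 to 0.795), 1.08 (1.02 to 1.14) and 0.998 (0.957 to 1.04). Nrp2 of the pooled lineage was at 66.9 against 138 CPM, whereas within types it was near 1 in alveolar macrophages, which hold most of its UMIs, and called lower in interstitial macrophages (0.457) and Ccr7 dendritic cells (0.474). Vegfb of the pooled lineage had a ratio of 0.570 (0.514 to 0.632), whereas against the levels of the same 10 types it came to 1.24 (1.01 to 1.52). On that scale Kdr, on 32 KO-label UMIs, came to 0.18 (0.083 to 0.40). Flt4, on 14 UMIs, came to 0.36 (0.16 to 0.77).

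Epithelial cells gave 2 of 5 genes called, both lower, beside 20.4% of all genes. Kdr stood at 2 against 46 UMIs and Nrp2 at 8 against 139 UMIs. The epithelial cells of the libraries were not alike: sub-clusters 0, 3 and 4, with 69, 25 and 26 cells of the KO label and 2, 18 and 10 of the WT label, held more UMIs of the leukocyte gene Ptprc than of Epcam, and the 8 classical monocyte markers summed to 3563 CPM under the KO label against 132 CPM under the WT label. Endothelial markers summed to 59.4 CPM, with Cdh5 at 0, against 366 CPM. The Nrp2 UMIs of the WT label lay mostly in sub-cluster 3, with 103 UMIs in 18 cells. With those sub-clusters left out, 33 and 117 cells remained and 2 of 5 genes were called, beside 3.91% of all genes, Flt1 at 0 against 53 UMIs and Nrp2 at 0 against 36 UMIs, whereas Nrp1 stood at 113 and 56.6 CPM. In all secretory epithelial cells of the WT label, Cdh5 went with 20.1 CPM of Flt1, where 34.5 CPM was measured. The part of leukocyte-like cells and of endothelial RNA in the epithelial results was not tested beyond this.

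In stromal cells 0 of 7 genes were called, beside 1.55% of all genes, with 22 cells under the KO label. The depth there could not show smaller differences: Nrp1 had a ratio of 1.15 (0.838 to 1.55) and Vegfa one of 2.05 (1.32 to 3.05). In NK cells 0 of 4 genes were called, beside 5.08% of all genes, with Vegfa at 125 CPM (128 UMIs) and 198 CPM (1556 UMIs), a ratio of 0.632 (0.524 to 0.757).

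Genes that act with the family were read from fixed lists. In endothelial cells 0 of 11 tested semaphorin and plexin genes were called, with a median log2 ratio of -0.32 against 0.02 over all genes and -0.32 over the 8 members. Of all genes tested in these cells 1.36% were called, 0.627% higher and 0.734% lower, and this share stands beside the count of each list. Of 19 tested genes of VEGF receptor signalling 1 was higher, the small heat shock gene Hspb1 at 801 and 375 CPM, and of 10 VEGF-responsive endothelial genes 1 was higher, the calcineurin regulator Rcan1 at 129 and 61.4 CPM. Their list medians were 0.03 and -0.26. None of 12 hypoxia response genes was called, with a median of 0.13. Of the other VEGF ligands, Vegfd was at 172 CPM in fibroblasts of the WT label, and Pgf at 3.10 and 3.02 CPM in alveolar macrophages. Sema3c, a ligand of the neuropilins, stood at 4856 and 3866 CPM in general capillary cells, and Sema3e at 132 and 148 CPM in alveolar macrophages.

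Over 30 profiles of 18 cell types in both libraries, 13550 genes were ranked by the likeness of their pattern to each member. Pearson's r of log2(CPM + 1) was highest for Ripply3 (0.946) and Esam (0.945) with Kdr, for Pcdh12 (0.976) and Wscd1 (0.973) with Flt4, for Cd36 (0.833) and Dusp6 (0.820) with Flt1, and for Ctif (0.920) and Lrp5 (0.873) with Nrp1. For the ligands it was highest for Tcn2 (0.769) with Vegfa, Pmepa1 (0.922) with Vegfb and Edn1 (0.761) with Vegfc, and Dab2 (0.823) led for Nrp2. The profiles share libraries and differ in depth, so these are descriptions of the level patterns only.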

How the data were processed

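Dissociated live lung cells were measured by 3′ single-cell RNA sequencing in 1 library per label. The authors deposited raw UMI counts per gene, called cell and antibody tag, without normalization, and the submitters' processing notes name Cell Ranger 9.0.1 and GRCm39. Removal of doublets or free RNA is not given in the sources used here. The 18 antibody tags were not used. The study's methods state 2 samples per genotype. They describe hashtags for sorted spleen and thymus cells, to mark WT and KO cells, and name none for the lung libraries. No label ties a tag to a mouse, so each library was treated as 1 sample although it may hold cells of more than 1 mouse, and no p-value was computed.

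Python 3.11.15, scanpy 1.11.5, leidenalg 0.10.2, numpy 2.4.6, scipy 1.17.1, pandas 2.3.3, matplotlib 3.10.9 and R 4.3.3 were used. Following the study's methods, the cells kept had at least 500 UMIs, at least 200 genes and at most 20% mitochondrial UMIs. Left out were 9537 ribosomal, mitochondrial and Gm- genes, with 18.9% of UMIs for KO and 16.4% for WT. Each cell was scaled to 10000 counts, then taken to logs and scaled with values capped at 10. Both libraries were clustered together, without the 8 genes, from 2000 variable genes, 50 components, 15 neighbours and Leiden resolution 0.8, giving 36 clusters. The variable genes were chosen with a rewritten seurat_v3 method (R loess, span 0.3). Clusters were named from markers raised 1.5-fold in at least 5% of cells, with at least 3 such markers. The rules that left clusters mostly of called doublets, led by cell-cycle genes or with markers of several lineages unnamed, and the rule asking for 3 general markers of the lineage, were added after the data were seen. Doublets were kept. Scrublet called 346 cells (3.30%) under the KO label and 1146 (5.92%) under the WT label.

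UMIs were summed per library and class of at least 20 cells and given as CPM of the genes kept, with exact Poisson intervals, exact binomial (Clopper-Pearson) intervals for shares and exact conditional binomial intervals for ratios (for ratios to expected UMIs, an approximate interval on the log scale from the counts of both libraries), all at 95% and for counting error only. The floor of a count of 0 is 3 counts. Shares of cells were taken after thinning each cell to 1500 UMIs, which left out shallower cells, 11 of 109 endothelial cells under the KO label and 83 of 2226 under the WT label. The ratio rule was tested on simulated counts. For each gene the 3 genes with the highest Pearson r over classes were named, among genes with at least 200 UMIs. The alternatives tried were all genes in the total, other resolutions, doublets left out, the 8 genes among the variable genes, separate clustering, deeper cells, thinning, classes without clusters and other call rules. Leaving out epithelial sub-clusters with more Ptprc than Epcam UMIs, and the comparison at the same sub-clusters or types, were chosen after seeing the data. The 8 genes, the gene lists and the tests were chosen with earlier results of these data known. Promoter windows are RefSeq's on GRCm38.p6, and all 8 genes matched by symbol. For Vegfa, which has 2 windows, the one nearest the gene's start was used.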

Additional observations from a re-analysis of the deposited data

Results flagged for a closer look

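Vegfa and Nrp2 were past 1.5-fold in opposite directions in different cell types, and the difference between the types was not tested. Vegfa was higher under the KO label in Ccr7 dendritic cells, at 79.7 CPM (41 UMIs, 56 cells) against 28.8 CPM (113 UMIs, 355 cells), a ratio of 2.77. It was also higher in interstitial macrophages, at 194 CPM (54 UMIs, 27 cells) against 33.7 CPM (175 UMIs, 447 cells), a ratio of 5.74. Of these interstitial macrophages 18.5% under the KO label and 2.46% under the WT label were called doublets, and after thinning 3 of 27 cells (11.1%) and 17 of 437 (3.89%) held a Vegfa UMI. It was lower in classical monocytes, with a ratio of 0.389, and in unsplit monocytes, with a ratio of 0.596.

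Nrp2 was higher under the KO label in classical monocytes, with a ratio of 3.98 on 4 UMIs of the WT label. It was lower in B cells, with a ratio of 0.408, in Ccr7 dendritic cells (0.474), in interstitial macrophages (0.457) and in secretory epithelial cells (0.168). The secretory class is a mixed one, which raised 8 secretory and 7 alveolar type 2 markers. Most epithelial Nrp2 UMIs of the WT label lay in sub-cluster 3, which held 215 Ptprc against 9 Epcam UMIs. With such epithelial sub-clusters left out, Nrp2 stood at 0 against 36 UMIs in 33 and 117 cells. The classical monocyte value turned under other settings, as given with the processing.

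Outside the endothelial, epithelial, stromal and myeloid comparisons, Nrp1 was higher under the KO label in T cells, at 85.5 CPM (301 UMIs, 766 cells) against 41.1 CPM (428 UMIs, 2409 cells), a ratio of 2.08. After thinning, 10.2% of T cells under the KO label and 4.30% under the WT label held a Nrp1 UMI. The T cells of the libraries lay in different clusters: cluster 9, led by genes such as Icos, Ctla4 and Ikzf2, held 497 of the 766 KO-label cells and 598 of the 2409 WT-label cells. Within cluster 9 Nrp1 was at 121 CPM (288 UMIs) and 140.0 CPM (386 UMIs), so the higher level was not seen there.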

How the results depend on the processing

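Of 422 log2 ratios under the alternatives 373 moved by less than their counting error, 44 moved by more and 5 reversed. Vegfa in myeloid cells, at 0.74 on the log2 scale, came to -0.0901 when cells were thinned. Nrp2 in classical monocytes, at 1.99, came to -0.689 with doublets left out, -0.0529 at resolution 0.5, -0.0458 with the 8 genes among the variable genes and -1.82 with cells of at least 1000 UMIs. The Flt1 calls in myeloid cells and in each of the 3 monocyte classes were kept under every alternative of clustering, depth and total that could be computed. The same held for the Kdr call in alveolar macrophages. Against the levels of the same types, however, myeloid Flt1 came to 0.658 (0.625 to 0.692) and was not called. The Vegfa call in classical monocytes was kept in 6 of 7 alternatives and lost when cells were thinned. In unsplit monocytes it was kept in 2 of 4, and lost at resolution 1.2 and when thinned. The Vegfc call in endothelial cells was kept in 6 of 8, with log2 ratios from -1.24 to -0.957. The number of endothelial genes called, 1, was 0 at resolution 1.2 or when thinned, and 3 when the ratio itself was called. It was also 0 against the levels of the same sub-clusters, which used general capillary cells only (100 and 1999 cells). The epithelial number, 2, was 0 at resolution 0.5, with cells of at least 1000 UMIs or when thinned, and 1 without clusters or with at least 100 UMIs per gene. The stromal number, 0, was 3 when the ratio itself was called, and the myeloid number, 6, was 3 when thinned and 2 against the levels of the same types. Those 2 were Vegfa and Kdr, both lower, so Vegfa was called there in the direction opposite to its pooled call. Over the other gene lists 45 calls became 92 when the ratio itself was called. Thinning leaves fewer UMIs and so widens every interval, and otherwise the cause was not tested. Epithelial cells with doublets left out (3 and 15 cells), and endothelial, epithelial, stromal, general capillary and both other monocyte classes with separate clustering, could not be compared. Clustered on its own, the KO-label library gave 0 cells named endothelial and 0 named stromal, against 2115 and 359 in the WT-label library. Classical monocytes numbered 3102 under the KO label and 0 under the WT label in this setting. Unsplit monocytes did not form a class with doublets left out, at resolution 0.5 or with the 8 genes among the variable genes.

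The 109 endothelial and 22 stromal cells under the KO label limit what could be seen there. No paired analysis was possible because both labels carry replicate number 1 and each holds 1 library.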

Other observations

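Lymphoid cells held 2.88% of Vegfa UMIs under the KO label and 15.9% under the WT label, nearly all of the latter in NK cells, which held 14.0% of them. After thinning, a Vegfa UMI was seen in 15.2% of NK cells under the KO label and 21.2% under the WT label, against 0.804% and 0.886% of T cells. Innate lymphoid cells of the WT label (152 cells) held Nrp1 at 249 CPM (199 UMIs), Flt1 at 159 CPM (127 UMIs) and Vegfc at 48.7 CPM (39 UMIs), and 11.8% of these cells were called doublets. Their Cdh5, at 145 CPM, went with 71.9 CPM of Nrp1, 115 CPM of Flt1 and 21.6 CPM of Vegfc at the ratios found in WT-label endothelial cells. Plasmacytoid dendritic cells held Nrp1 at 165 CPM (19 UMIs, 13 cells) under the KO label and 160 CPM (157 UMIs, 132 cells) under the WT label. Under the WT label their Cdh5, at 153.5 CPM, went with 76.2 CPM of Nrp1, and 14.4% of the cells were called doublets.

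The 8 neutrophils found under the KO label held 5 Vegfa UMIs (49.9 CPM), whereas the 1429 under the WT label held 1216 (286 CPM). After thinning, 22.6% of WT-label neutrophils held a Vegfa UMI and 0.605% a Nrp1 UMI.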
